A study of Homo sapiens with 6 samples.

Results

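Translation initiation and elongation factors were examined in IMR-90 cells, a human fetal lung fibroblast line, before and after induction of a short hairpin against ZNF469, a zinc finger protein that the study investigated as a regulator of extracellular matrix genes. Members were every gene whose symbol starts with EIF1 to EIF6, EEF1 or EEF2, without the 4 EIF2AK kinases and without pseudogenes, which gave 68 of the 23754 features in the table. Both groups were the same kind of culture, transduced with a doxycycline-inducible vector for the hairpin sh-2 and kept in 0.5 µg/mL puromycin. The 3 Control libraries came from cells without doxycycline (labelled wild-type by the submitters), and the 3 Sh-ZNF469 libraries came from cells given 2 µg/mL doxycycline for 4 days. Poly(A) RNA was sequenced, so each value is a level of mRNA and not of protein or of translation. The submitters call the libraries technical replicates, so each p-value below measures the spread between these libraries, and 1 hairpin in 1 cell line was used. Because no library had doxycycline without the hairpin, effects of the drug and of the hairpin cannot be told apart.

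Protein synthesis starts when a small ribosomal subunit, loaded with initiator tRNA by eIF2, is recruited by eIF3 and the cap-binding complex eIF4F, scans to a start codon and is joined by the large subunit. The eIF4E-binding proteins compete with eIF4G for the cap-binding protein eIF4E, and phosphorylation by mTORC1 releases them. Elongation then depends on eEF1A, which delivers aminoacyl-tRNA, on the eEF1B exchange factors that recharge it, and on eEF2, which moves the ribosome along the mRNA. Many of these mRNAs begin with a C followed by a run of pyrimidines, the TOP motif through which mTORC1 and LARP1 govern their translation.

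Total counts lay between 34057675 and 36120260 per library, and the targeted gene differed in the direction of its label. ZNF469 was measured at 119 ± 7.25 CPM (counts scaled by library size and TMM factor; mean ± SD, n = 3) in Control and 80.1 ± 0.488 in Sh-ZNF469 libraries, a log2 fold change of -0.57 (SE 0.0477, edgeR adjusted p = 3.31e-05), so that 67.5% of its mRNA was left. Sh-ZNF469 replicate 2 stood apart from the other libraries, at 32.8 on the first principal component (23.9% of the variance) against -12.6 to 0.52 in the other 5, and results are therefore also given without it. All 10 fibroblast markers were detected, with VIM at 3850 FPKM (the authors' fragment level scaled to transcript length and depth), whereas KRT5, SFTPC, PECAM1, CDH5, CD3E and MS4A1, which mark epithelial, endothelial and immune cells, were at 0. Of the 10 fibroblast markers 5 fell, namely COL1A1, COL1A2, COL3A1, DCN and LUM, and their part in the results below was not tested. Of 14 such markers 5 were tested and 0 called, led by KRT18 at 58.6 FPKM and CD68 at 30.7 FPKM. In bulk RNA, fewer cells of a type and less RNA per cell cannot be told apart.

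The factors formed an abundant and steady part of the transcriptome. Together they took 2.52% to 2.54% of all counts in every library, with no separation of the groups. Of the 68 members, 63 passed the filter on low counts and were tested. EIF4E1B, EEF1AKMT4-ECE2 and EEF1E1-BLOC1S5 had 0 counts in all libraries, EIF4EBP3 had at most 2, and EIF1AY was not tested and its level is not given. EEF1A1, the eEF1A isoform of most tissues, was listed at 3537 FPKM on average and ranked 5 among all features, and EEF2, the translocase, followed at 699 FPKM. EIF4A1, the helicase subunit of eIF4F, had 612 FPKM and EEF1G, a subunit of the eEF1B complex, had 518 FPKM. EEF1A2, the isoform of muscle and neurons, had only 3.09 FPKM. The 14 eIF3 genes lay between 28.1 and 132 FPKM, while the 5 subunits of eIF2B, which recharges eIF2 with GTP, lay between 5.44 and 21.3 FPKM. Among the eIF4E-binding proteins, EIF4EBP1 had 48.9 FPKM and EIF4EBP2 had 8.98 FPKM.

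**Figure D1:**
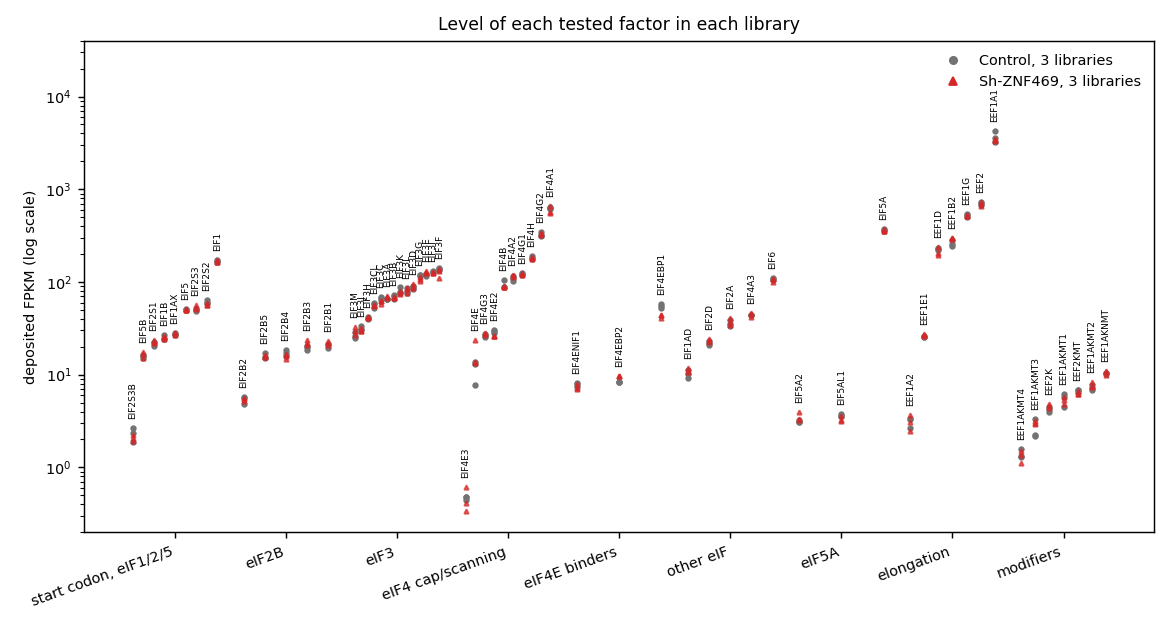
Level of each of the 63 tested factors in each library, on a log axis of the deposited FPKM, with the factors grouped by role along the horizontal axis. Circles are the 3 Control and triangles the 3 Sh-ZNF469 libraries. EEF1A1 stands highest at 3537 FPKM on average, and EIF4E3 lowest at 0.462.

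The deposited FPKM values followed the counts least closely for EIF4E, the cap-binding protein. For EIF4E the deposited FPKM ran from 7.8 in Control replicate 1 to 23.8 in Sh-ZNF469 replicate 2, whereas its CPM ran only from 74.8 to 84.0. The ratio of FPKM to CPM thus varied 2.85-fold between libraries for EIF4E, against 1.3-fold for EEF1A1 as the next member and a median of 1.05-fold. The tests between groups rest on the counts, and FPKM serves to compare levels between genes.

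Transcription start sequences are shown for the members that carry the pyrimidine run on which growth control of this family is known to act, beside a pair that lack it. RefSeq start sites on GRCh38.p14 were found for 54 of the 68 members, and each line gives 10 bases before the annotated start and 20 bases from it, 5′ to 3′, with the run in capitals (a C at the start and all the C or T that follow without a break, at least 4 of them).
EEF1A1, chr6:73521013-73521042, minus strand: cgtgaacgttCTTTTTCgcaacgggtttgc
EEF2, chr19:3985444-3985473, minus strand: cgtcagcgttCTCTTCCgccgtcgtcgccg
EEF1B2, chr2:206159885-206159914, plus strand: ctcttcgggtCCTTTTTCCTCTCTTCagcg
EIF4B, chr12:53006446-53006475, plus strand: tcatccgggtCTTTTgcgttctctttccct
EIF3F, chr11:7987327-7987356, plus strand: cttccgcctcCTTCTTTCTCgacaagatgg
EIF3D, chr22:36529147-36529176, minus strand: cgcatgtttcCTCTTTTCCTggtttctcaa
EIF4E, chr4:98929114-98929143, minus strand: tggagcggttgtgcgatcagatcgatctaa
EIF4EBP2, chr10:70404135-70404164, plus strand: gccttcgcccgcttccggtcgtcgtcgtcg

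Such a run was present at the start of 13 of the 54 members (24.1%), against 5.14% of all 27305 genes with a RefSeq start and 68.3% of 63 ribosomal protein genes. The other 7 members with the run were EIF2A, EIF2D, EIF2S3, EIF2S3B, EIF3K, EIF3M and EIF4A2. The 13 had a median level of 88.5 FPKM, against 25.8 FPKM for the 36 tested members with a start but no run. The match describes letters at 1 annotated base and not a mapped start in these cells.

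Of the 63 tested members, 1 fell and 0 rose (edgeR quasi-likelihood test, adjusted p under 0.05), against 0.715% of all 13991 features tested that were lower and 0.400% that were higher. With library-size scaling in place of TMM, the calls over all features went from 56 higher and 100 lower to 88 higher and 77 lower. Without Sh-ZNF469 replicate 2 the members' counts were again 1 lower and 0 higher, against 0.548% and 0.267% of all features in that fit. At an unadjusted p under 0.05, 10 members were lower and 2 were higher, against backgrounds of 7.69% and 7.31%, and without that library the counts were 9 and 1, against 5.76% and 5.36%. DESeq2, which gave an adjusted p to 57 members, called 5 members lower and 1 higher, against 2.85% and 2.77% of the 9379 features given one. The 3 values of one group lay entirely below those of the other in 11 members with lower Sh-ZNF469 levels, against 10.6% of all features, and in 5 with higher levels, against 9.73%.

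Fold changes of the family were small and mostly well bounded. The median log2 fold change of the 63 members was -0.02, with 24 above and 39 below 0, beside a median of -0.0019 over all features. The estimate was within 0.1 of 0 in 46 members (73.0%, against 56.8% of all features) and within 0.2 in 61 (96.8%, against 81.0%). Without Sh-ZNF469 replicate 2 the counts were 44 and 61, against 58.0% and 79.8% of all features. The members had a median level of 36.5 FPKM, against 6.01 FPKM over all features tested. Their fold changes were not compared with those of features of like level. For 40 members the whole 95% interval lay within 0.2 of 0, and the share of all features with such an interval was not computed. The 17 members above 100 FPKM had log2 fold changes from -0.16 to 0.06.

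**Figure D2:**
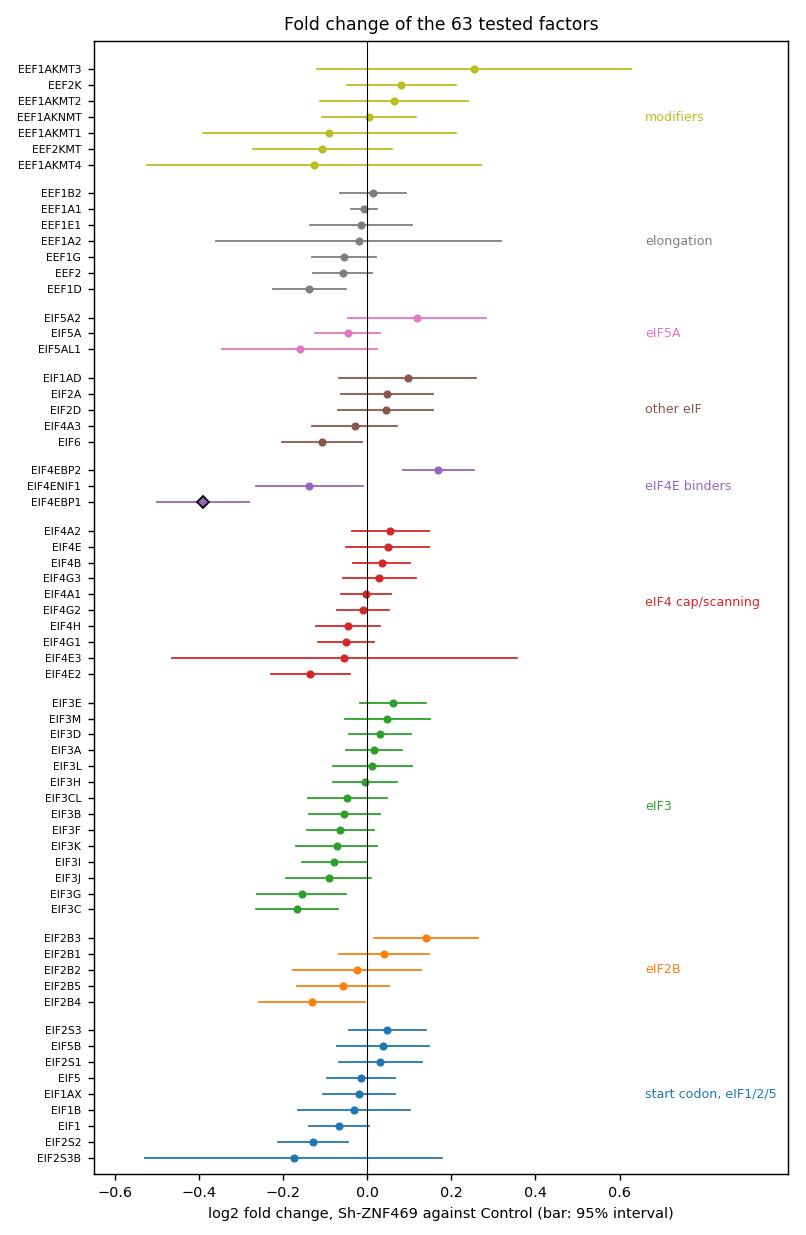
Log2 fold change of Sh-ZNF469 against Control libraries for the 63 tested factors, in colours by role, with bars for the 95% interval. The diamond with a black rim marks EIF4EBP1, the member with an adjusted p under 0.05. The other estimates lie between -0.18 and 0.25, and wide bars belong to genes of low count such as EIF4E3 and EEF1AKMT4.

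EIF4EBP1, the best-known inhibitor of the cap-binding protein (ENSG00000187840, chr8:38030534-38060365 on GRCh38, plus strand), was the member that fell. It was measured at 61.8, 59.4 and 65.7 CPM in the Control libraries and at 48.9, 48.0 and 45.6 CPM in the Sh-ZNF469 libraries. Every Sh-ZNF469 library was below every Control library, and the gap between groups was wider than the range within either. The log2 fold change was -0.39 (SE 0.0509, edgeR adjusted p = 0.0020), which left 76.3% of the Control level (95% interval 70.7% to 82.3%). Without Sh-ZNF469 replicate 2 it was -0.40 (edgeR adjusted p = 0.0048).

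EIF4EBP2, the paralogue with the same mode of binding to eIF4E (ENSG00000148730, chr10:70404145-70428618, plus strand), had the opposite sign. It was measured at 66.8, 67.8 and 67.3 CPM in the Control libraries and at 76.4, 74.8 and 75.7 CPM in the Sh-ZNF469 libraries. All Sh-ZNF469 libraries lay above all Control libraries. The log2 fold change was 0.17 (SE 0.0395) and did not pass the threshold (edgeR adjusted p = 0.066, and 0.106 without Sh-ZNF469 replicate 2). It passed under 5 of 17 alternative analyses, with adjusted p = 0.0123 in DESeq2.

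The ratio of EIF4EBP1 to EIF4EBP2 counts went from 0.926 ± 0.0501 in Control to 0.628 ± 0.0217 in Sh-ZNF469 libraries (mean ± SD, n = 3). The 2 sets of ratios could not overlap, because both genes separated between the groups in opposite directions. The exact two-sided permutation test therefore had to give p = 0.1, the smallest value that 3 libraries against 3 allow. It adds no support beyond the values of each gene. Per length, EIF4EBP1 was the more abundant of the pair in both groups, at 6.59 ± 0.357 times the FPKM of EIF4EBP2 in Control and 4.47 ± 0.155 times in Sh-ZNF469 libraries. EIF4ENIF1, the nuclear transporter of eIF4E and the other tested binder, was at 30.4 ± 1.21 CPM in Control and 27.6 ± 1.05 CPM in Sh-ZNF469 libraries, a log2 fold change of -0.14 (edgeR adjusted p = 0.294).

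**Figure D3:**
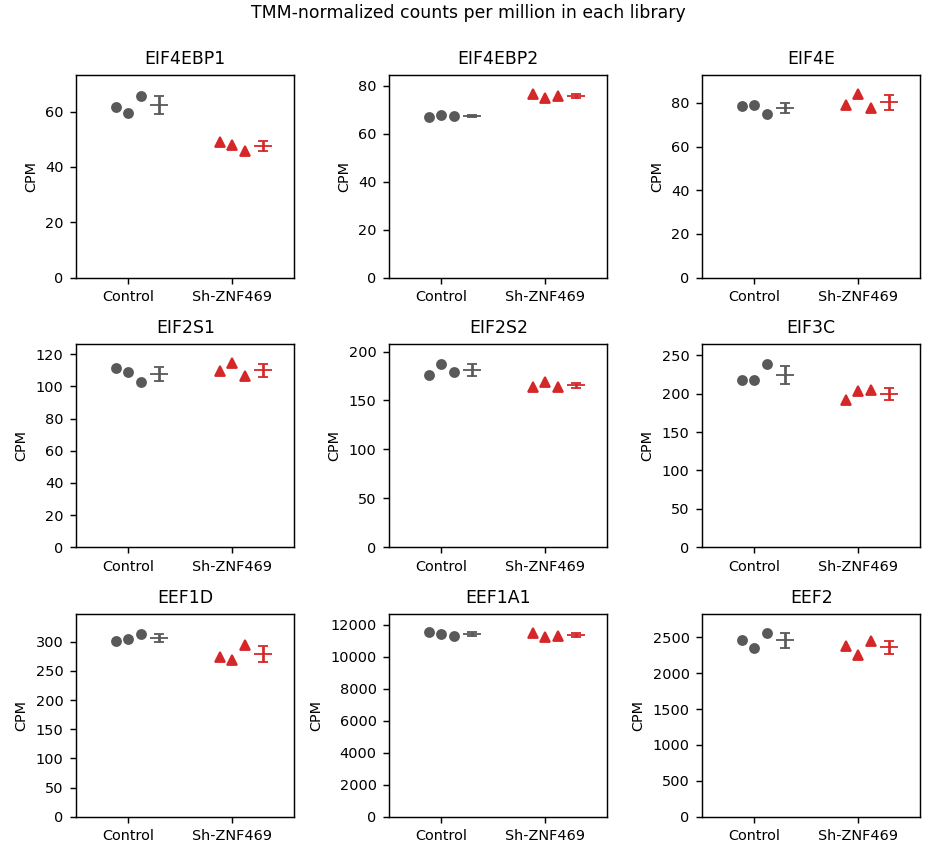
CPM of 9 factors in each library, with the mean and SD of each group at the right of its points and every vertical axis starting at 0. EIF4EBP1 lies between 59.4 and 65.7 CPM in Control and between 45.6 and 48.9 CPM in Sh-ZNF469 libraries, and EIF4EBP2 is displaced upwards, whereas the points of EIF4E, EIF2S1, EEF1A1 and EEF2 overlap between groups.

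None of the 10 tested cap-binding and scanning factors passed the test, and their median log2 fold change was -0.0064. EIF4E itself was measured at 78.5, 79.2 and 74.8 CPM in Control and 79.1, 84.0 and 77.4 CPM in Sh-ZNF469 libraries. The groups overlapped, and the log2 fold change of 0.05 had a 95% interval from -0.05 to 0.15. EIF4A1 differed by less than 0.01 on the log2 scale (95% interval -0.06 to 0.06), and EIF4G1, the scaffold of eIF4F, was at 671 ± 21.6 CPM in Control and 648 ± 10.4 CPM in Sh-ZNF469 libraries. EIF4E2, a cap-binding homologue that acts in repression of mRNAs, had the smallest p of the group. Its levels were 78.8, 77.5 and 83.3 CPM in Control and 72.2, 73.7 and 72.3 CPM in Sh-ZNF469 libraries, without overlap, and the log2 fold change was -0.14 (SE 0.0430, edgeR adjusted p = 0.163), or -0.07 with length trends removed. The last value rests on an annotated canonical transcript of 967 bases, and the length expressed in these cells was not tested.

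The start-codon factors included no called gene among 9 tested, with a median of -0.02. EIF2S1, the eIF2 subunit whose phosphorylation lowers initiation under stress, was measured at 112, 109 and 103 CPM in Control and 110, 114 and 106 CPM in Sh-ZNF469 libraries. These values overlapped, and the log2 fold change was 0.03 (95% interval -0.07 to 0.13). EIF2S2, the beta subunit, was lower in each Sh-ZNF469 library than in any Control library, at 176, 188 and 179 CPM against 164, 168 and 164 CPM. Its log2 fold change was -0.13 (SE 0.0387, edgeR adjusted p = 0.144). EIF2S3, the gamma subunit that binds GTP and initiator tRNA, was at 159 ± 3.84 CPM in Control and 165 ± 7.53 CPM in Sh-ZNF469 libraries. Of the 31-base words of its transcript 30.1% also occur in that of EIF2S3B, and 39.5% of those of EIF2S3B occur in EIF2S3. The split of reads between EIF2S3 and EIF2S3B was not tested. EIF1, which guards the choice of start codon and was the most abundant of the group, had a log2 fold change of -0.07 (SE 0.0328, edgeR adjusted p = 0.355).

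The eIF2B subunits did not move in one direction. EIF2B3 was at 36.0 ± 2.07 CPM in Control and 39.6 ± 1.61 CPM in Sh-ZNF469 libraries, a log2 fold change of 0.14 (SE 0.0575, edgeR adjusted p = 0.279). EIF2B4 was at 32.8 ± 1.47 CPM against 29.9 ± 1.14 CPM, a log2 fold change of -0.13 (edgeR adjusted p = 0.307). The groups did not overlap for either of these subunits, but neither difference passed the test. EIF2B1, the most abundant by FPKM, had a log2 fold change of 0.04 (SE 0.0498), and EIF2B5, which holds the catalytic centre, had one of -0.06.

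The eIF3 complex, the scaffold that holds the initiating small subunit, had no called gene among 14, with EIF3CL counted beside EIF3C. The median was -0.05, with 9 genes below and 5 above 0. EIF3C had the smallest p, at 217, 217 and 238 CPM in Control and 191, 203 and 205 CPM in Sh-ZNF469 libraries. The groups did not overlap, and the log2 fold change was -0.17 (SE 0.0451, edgeR adjusted p = 0.105). This value is uncertain because EIF3CL, a duplicate of EIF3C on chromosome 16, shares 99.4% of the 31-base words of the EIF3C transcript, so the split of reads between them is not known. With both genes summed, the difference was -0.11 (edgeR adjusted p = 0.189). EIF3G was at 141 ± 5.68 CPM in Control and 127 ± 7.62 CPM in Sh-ZNF469 libraries, a log2 fold change of -0.16 (edgeR adjusted p = 0.161). EIF3E, whose product bridges to eIF4G, was higher in every Sh-ZNF469 library, at 198 ± 4.67 CPM against 207 ± 4.21 CPM, a log2 fold change of 0.06 (edgeR adjusted p = 0.463). EIF3A, the largest subunit, was at 487 ± 8.25 CPM in Control and 493 ± 10.8 CPM in Sh-ZNF469 libraries, and EIF3F, with the highest FPKM of the complex, had a log2 fold change of -0.06 (SE 0.0368).

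Of the 7 tested members listed under elongation by their symbols, EEF1E1 among them, 0 were called and the median was -0.02. EEF1A1 (chr6:73489308-73525587, minus strand) was measured at 11520, 11400 and 11270 CPM in Control and at 11480, 11220 and 11310 CPM in Sh-ZNF469 libraries. The groups overlapped, and this was the most precisely measured member, with a log2 fold change of -0.01 (SE 0.0142, 95% interval -0.04 to 0.02). EEF2 was measured at 2460, 2357 and 2557 CPM in Control and at 2380, 2258 and 2442 CPM in Sh-ZNF469 libraries. These values overlapped too, and the log2 fold change was -0.06 (95% interval -0.13 to 0.01). EEF1D, the delta subunit of the exchange complex, was at 301, 305 and 314 CPM against 273, 268 and 294 CPM. It did not overlap between groups, and its log2 fold change was -0.14 (SE 0.0402, edgeR adjusted p = 0.131). With GC trends removed it was -0.06 (edgeR adjusted p = 0.323), and without Sh-ZNF469 replicate 3 it was -0.18 (edgeR adjusted p = 0.0494). EEF1G and EEF1B2, its partners in that complex, had log2 fold changes of -0.06 and 0.01. EEF1A2 had too few counts for a close estimate, with a 95% interval from -0.36 to 0.32.

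A locus outside the annotation, to which the deposited data attach the symbol of the pseudogene EEF1A1P5, was no member. Whether it shares reads with EEF1A1 was not tested. It was at 1131 ± 6.72 CPM in Control and 1025 ± 48.2 CPM in Sh-ZNF469 libraries (log2 fold change -0.14, edgeR adjusted p = 0.0573). Summed with it, EEF1A1 had a log2 fold change of -0.02 (edgeR adjusted p = 0.568).

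The eIF5A family, which carries the amino acid hypusine and eases stalled peptide bonds, had 0 of 3 called. EIF5A was at 558 ± 14.4 CPM in Control and 541 ± 22.7 CPM in Sh-ZNF469 libraries, with a log2 fold change of -0.05 (95% interval -0.12 to 0.03). EIF5AL1 had a log2 fold change of -0.16 (SE 0.0855, edgeR adjusted p = 0.405), but 16.9% of the words of its transcript also occur in that of EIF5A, and 53.0% of those of EIF5A occur in EIF5AL1. With both genes summed the difference was -0.05 (edgeR adjusted p = 0.547). EIF6, which keeps the large subunit from joining early, was at 147 ± 5.34 CPM in Control and 136 ± 5.76 CPM in Sh-ZNF469 libraries, a log2 fold change of -0.11 (edgeR adjusted p = 0.276). With length or GC trends removed it was -0.05 or -0.06. EIF4A3 of the exon junction complex, EIF2A, EIF2D and EIF1AD overlapped between groups, with log2 fold changes from -0.03 to 0.10.

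None of the 7 modifiers of elongation factors was called. EEF2K, the kinase that inactivates eEF2, was measured at 36.0, 32.5 and 35.1 CPM in Control and 36.7, 34.5 and 38.4 CPM in Sh-ZNF469 libraries, with overlap and a log2 fold change of 0.08 (95% interval -0.05 to 0.21). EEF1AKNMT, a methyltransferase of eEF1A, had a log2 fold change of 0.0045 (SE 0.0519). The largest estimate of any member above 0 belonged to EEF1AKMT3, another eEF1A methyltransferase. Its Control levels of 9.86, 5.60 and 6.45 CPM enclosed the Sh-ZNF469 levels of 9.05, 8.58 and 8.48 CPM, and the log2 fold change of 0.25 had an SE of 0.172 (edgeR adjusted p = 0.522). The estimate was 0.53 without Control replicate 1 and 0.09 without Control replicate 2.

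The 13 members with a pyrimidine run at the start had a median log2 fold change of 0.03, with 8 above and 5 below 0, a range from -0.18 to 0.05 and 0 called. The 36 tested members with a start but no run had a median of -0.03, with 11 above and 25 below 0. EIF4EBP1, the only called member, had no matched start and was in neither set, so 0 were called in both. Median transcript lengths were 3158 bases with the run and 2736 bases without it. Whether length had a part in the difference between the sets was not tested. A textbook list of 10 TOP mRNAs of this family, from EEF1A1 and EEF2 to EIF4B, EIF3E, EIF3F and EIF3H, had a median of -0.01. Of these, 3 were above and 7 below 0, and 0 were called. Several genes of that list, among them EEF1A2, EEF1D, EEF1G, EIF3E and EIF3H, are not among the 13 members with a run.

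Genes that act on these factors, and further translation factors that are no members, were described from 6 lists. These held 52 tested genes, of which 1 fell and 0 rose, with a median of -0.0045. DDIT4, a stress-induced inhibitor of mTORC1, was that gene. It was at 32.7 ± 3.41 CPM in Control and 22.2 ± 0.934 CPM in Sh-ZNF469 libraries, a log2 fold change of -0.56 (SE 0.0763, edgeR adjusted p = 0.0026). The other 14 genes between mTORC1 and translation, among them MTOR, RPTOR, RPS6KB1 and LARP1, were not called, and the list had a median of -0.09. Of the 6 eIF2 alpha kinases and phosphatase subunits 0 were called. PPP1R15A, the stress-induced phosphatase subunit, was at 189 ± 1.17 CPM in Control and 169 ± 1.23 CPM in Sh-ZNF469 libraries (log2 fold change -0.15, edgeR adjusted p = 0.0553), and the 4 kinases had log2 fold changes from 0.02 to 0.16. The lists of poly(A)-binding proteins (5 genes), termination and recycling factors (8), other cytosolic factors (9) and mitochondrial factors (9) held 0 called genes, with medians of 0.01, 0.02, 0.04 and -0.02.

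Transcript length moved with the fold changes. Over the 63 members the log2 fold change and the length of the canonical transcript had a Spearman correlation of 0.358, and over all 12771 tested features with a length one of 0.259, as a description, since all points share the 6 libraries. The 13 members shorter than 1500 bases had a median of -0.08, with 12 of them below 0, beside -0.06 for all 1709 features of that size. The 50 longer members had a median of -0.0064, with 27 below 0, beside 0.0075 for all longer features. Lengths are those of annotated canonical transcripts, and the lengths expressed in these cells were not tested. EIF4EBP1 has a short transcript of 827 bases and EIF4EBP2 a long one of 7491 bases. With the length trend of each library removed, EIF4EBP1 was at -0.32 (edgeR adjusted p = 0.0072) and EIF4EBP2 at 0.13 (edgeR adjusted p = 0.143). Whether RNA quality or length selection had a part in these values was not tested.

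**Figure D4:**
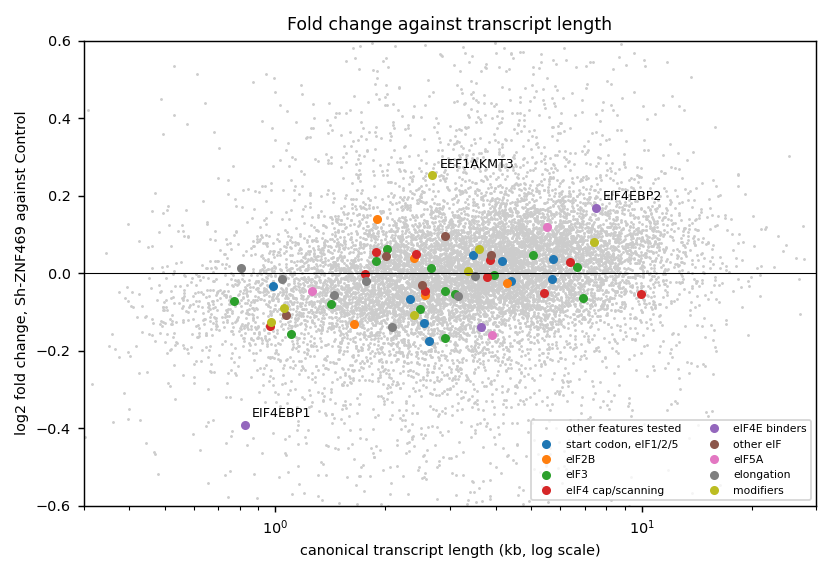
Log2 fold change of Sh-ZNF469 against Control libraries, plotted against canonical transcript length in kilobases on a log axis, for members in colours by role and for other tested features in grey. Of 12708 other features, 325 lie outside the plotted range. Most coloured points lie close to 0, and EIF4EBP1, at 827 bases, is the lowest at -0.39.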

How the data were processed

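RNA was measured in 6 libraries, 3 per group, grouped by their titles and treatment labels. The authors filtered 150-base paired reads, aligned them to GRCh38 with HISAT2 and assembled transcripts with StringTie; versions, annotation release and counting step are not given in the sources used here. The deposited counts are whole numbers per gene without normalization, and the deposited FPKM values were scaled by the authors to length and depth. After 17 stray lines were dropped, 23754 features remained, 3780 of them unannotated loci. Counts were tested in R 4.3.3 with edgeR 4.0.16: filterByExpr (minimum count 10), TMM scaling (factors 0.988 to 1.01) and the quasi-likelihood test with group as the single term. P-values were adjusted by Benjamini-Hochberg over the 13991 features that passed, with a threshold of 0.05. Standard errors are the log2 fold change over the square root of F. CPM values are TMM-scaled. The common biological coefficient of variation was 0.0731. Scripts were tested on simulated counts. Totals of 34057675 to 36120260 counts limit precision chiefly for genes of low count. No library pair agreed within sampling noise (chi-square per degree of freedom at least 4.65).

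GENCODE 44 gave coordinates, transcript length and shared 31-base words, and RefSeq gave starts. Named genes are ZNF469, every called member, in each role the member with the highest FPKM and that with the smallest p, and 9 set members (EIF4EBP1, EIF4EBP2, EIF4E, EIF2S1, EEF1A1, EEF1A2, EEF2, EEF2K, EIF5A). Other members named, such as EIF4ENIF1, EIF2S3, EIF2B4, EIF2B5, EIF3G, EIF3E, EIF3A, EIF4G1, EEF1G and EEF1B2, and PPP1R15A were chosen after their values were seen. The members, lists and tests were chosen with earlier results of these data known. Alternatives were DESeq2 1.42.0, limma-voom (limma 3.58.1), upper-quartile scaling, library size as the scale, no filter or 1 CPM in 3 libraries, each library left out, the replicate number as a block, lowess trends (span 0.3) on length or GC, near-identical pairs summed, a fold threshold, and EEF1A1 summed with its pseudogene-like locus, the last and the counts without Sh-ZNF469 replicate 2 added after seeing the data.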

Additional observations from a re-analysis of the deposited data

How the results depend on the processing

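EIF4EBP1 was lower and past the adjusted p threshold in each of 17 alternative fits, with log2 fold changes from -0.42 to -0.32 and adjusted p up to 0.0190, and ZNF469 likewise, from -0.62 to -0.47. Members called higher numbered 1 instead of 0 with library-size scaling, DESeq2, no filter, the replicate block and GC trends removed, in each case EIF4EBP2, and 0 in the others. Members called lower numbered 5 in DESeq2 (EEF1D, EIF2S2, EIF3C, EIF3G and EIF4EBP1), 3 with the replicate block (EEF1D, EIF3C and EIF4EBP1), 3 with GC trends removed (EIF2S2, EIF3J and EIF4EBP1), 0 with a log2 fold change over 1 also required, and 1 to 2 with a library left out (EEF1D was added without Sh-ZNF469 replicate 3, adjusted p = 0.0494). All features called higher and lower numbered 88 and 77 with library-size scaling, 260 and 267 in DESeq2, 127 and 163 without a filter, 135 and 157 with the replicate block, 146 and 178 with GC trends removed, 2 and 4 with a log2 fold change over 1, and 20 to 69 and 54 to 92 with a library left out. Same-numbered libraries did not deviate together (r = -0.024, -0.035 and 0.036) and not every library correlated best with its own number. The members' median was -0.00037 with library-size scaling, which moved the median of all features to 0.019, -0.012 with length trends removed, -0.030 with GC trends removed and -0.025 to -0.0084 with a library left out. The causes of these shifts were not tested. Several small differences changed sign without passing the threshold. EEF1A1 was at 0.013 with library-size scaling and from -0.017 to 0.00072 with a library left out. EEF1A2 was at 0.014 with length and 0.056 with GC trends removed and from -0.17 to 0.12 with a library left out, and EEF1AKNMT from -0.021 to 0.040. With GC trends removed EEF2 was at 0.0011, EIF2S1 at -0.036, EIF4E at -0.043 and EIF4A1 at 0.0084. EIF4A1 was also at 0.018 with library-size scaling, 0.00056 with upper-quartile scaling, 0.033 with length trends removed and from -0.020 to 0.020 with a library left out. EIF2S1 was at -0.0016 to 0.057 with a library left out, and EIF5A at 0.0026 with length trends removed.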
